A study of Mus musculus with 16 samples.

Results

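The proteasome subunit genes were taken as the rows of the count table whose gene symbol begins with Psma, Psmb, Psmc, Psmd or Psme followed by a digit. This rule found 44 genes among the 14829 of the table. Of these, 43 encode a proteasome subunit, a proteasome activator, a near copy of one or an assembly chaperone, and Psmc3ip (a meiotic recombination factor that shares the name stem) encodes none of them and is described apart. RNA was measured by sequencing in mouse hematopoietic stem cells, the cells of the bone marrow that renew the blood. The marrow of 8 mice, labelled young (4) or old (4), was divided, and each portion was held for 1 h at 37 °C with vehicle or with dmPGE2, a stabilised dimethyl analogue of prostaglandin E2, before sorting and RNA extraction. This gave 16 libraries in 4 groups of 4: young vehicle, young dmPGE2, old vehicle and old dmPGE2. The labels name neither a strain, a genotype, a sex nor an age in months, and the sources used here give no surface markers for the sort. The descriptions carry 2 dates, each covering a pair of young and a pair of old mice, called date 1 (young mice 477 and 478, old mice 479 and 480) and date 2 (young mice 483 and 484, old mice 485 and 486). What was done on a date is not stated in the sources used here. Values listed by library follow that order of mice, and where both ages are listed, young mice come first.

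The proteasome is the protease that degrades proteins marked with ubiquitin. Its 20S core is a barrel with beta rings in the middle and alpha rings, which form the gate, at the ends. In the beta rings Psmb5, Psmb6 and Psmb7 encode the catalytic subunits. The 19S particle caps the barrel: its base holds a ring of ATPases (Psmc genes), which unfold substrates, and its lid removes the ubiquitin chain. Psmb8, Psmb9 and Psmb10, which interferon induces, encode catalytic subunits that take the places of Psmb5, Psmb6 and Psmb7 in newly built cores, and this immunoproteasome is best known for making peptides for MHC class I. The Psme genes encode activators that open the core without ATP. Blood stem cells are known for a low rate of protein synthesis and for dependence on protein quality control.

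Between 12960704 and 19226963 counts were assigned to genes per library. Levels are in CPM, the count scaled to a common library size after TMM adjustment. A count of 0 allows a level of at most 0.231 CPM in the shallowest and 0.156 CPM in the deepest library, counting error alone considered, and each of the 44 genes exceeded this in each library. Stem cell genes were well expressed in every library: Procr ran from 86.5 to 276 CPM and Hlf from 324 to 562 CPM in vehicle. RNA of committed cells differed between the dates: Mpo, a granule enzyme of myeloid progenitors, stood at 2.01 to 9.58 CPM in vehicle libraries of date 1 and at 908 to 2470 CPM in those of date 2. The T cell gene Cd3e was at 0 to 0.0574 CPM on date 1 and at 6.67 to 15.5 CPM on date 2. Each age comparison therefore carries a term for date, and values within each date are given beside it.

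The family was strongly expressed. The median member averaged 158 CPM over the 16 libraries, against 30 CPM for the median gene of the table, and stood above 90.5% of all genes. Together the 44 genes held 0.596% to 0.839% of all counts of a library. Levels can be compared between genes only after division by gene length, so the following levels are CPM per kilobase. Psmb8 (LMP7, the immunoproteasome counterpart of Psmb5) had the highest level, 314 ± 37.8 (SD, n = 16 libraries), next to Psme1 (PA28 alpha) at 306 ± 23.4. These values differ by less than the spread over the libraries. Psmb2, Psma6, Psma2, Psmb1, Psmb6 and Psmb9 followed at 210 to 230. Psmb9 at 210 ± 24.3 and Psmb6, the subunit it replaces, at 210 ± 25 stood level on average over the libraries of both ages. Psmb8 stood above Psmb5 (112 ± 15.2), and Psmb10 (130 ± 12.8) above Psmb7 (85.9 ± 12.4). The ATPases ran from 56.7 (Psmc6) to 131 (Psmc3), the non-ATPase base subunits from 76.0 (Psmd1) to 122 (Psmd2) and the lid subunits from 67.0 (Psmd13) to 117 (Psmd7). At the low end lay the assembly chaperones Psmd10 (32.8) and Psmd9 (18.2), Psma8 (an alpha subunit known from testis, 10.1), Psme4 (PA200, 8.94) and Psme2b (a copy of Psme2, 6.38).

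**Figure D1:**
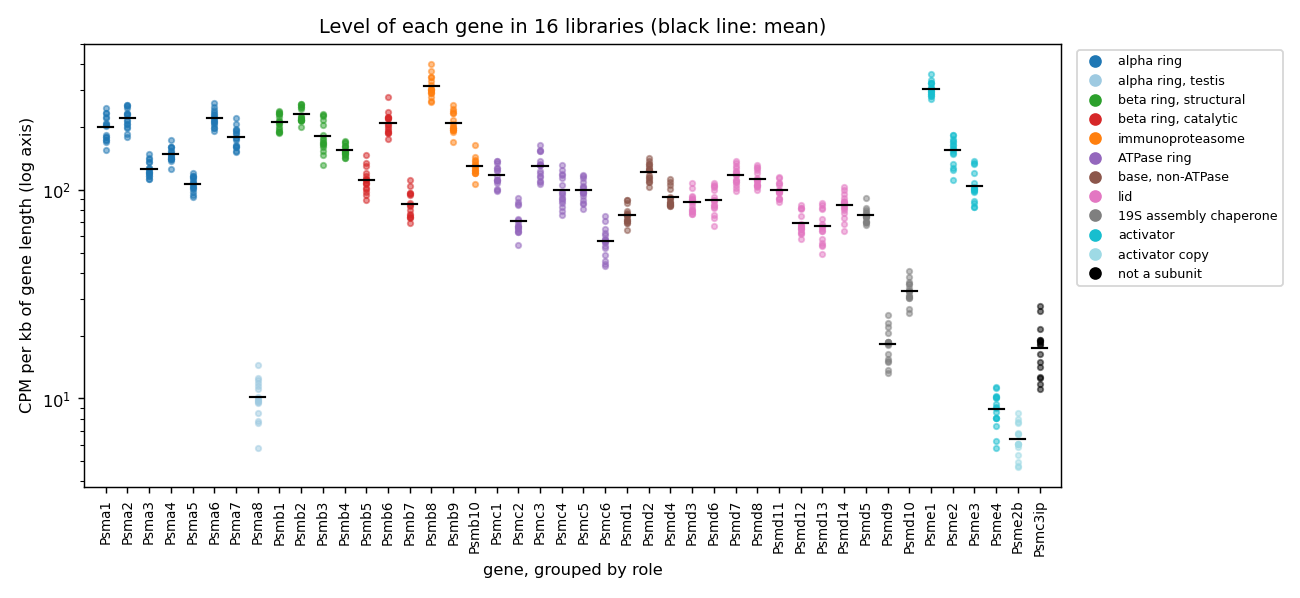
Level of each of the 44 genes in CPM per kilobase of gene length on a log axis, grouped by role and coloured by it. Each point is 1 of 16 libraries and each black line the mean. Psmb8 and Psme1 lie highest, and Psme2b, Psme4 and Psma8 lowest.

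In vehicle, RNA of 8 of 14 constitutive core subunits and of 6 of 17 subunits of the 19S particle fell in old mice, while the 3 immunoproteasome subunits had values near 0 and no call. Of the 44 genes, 16 passed the test as lower in old mice (adjusted p under 0.05) and 0 as higher. Over all 13369 genes tested, 8.86% were called lower and 8.47% higher. Since the family is strongly expressed, the share called lower among genes averaging at least 30 CPM, 12.7%, is the nearer comparison. The median log2 fold change of the family was -0.22, against -0.00 for all genes tested, and 39 of 44 genes lay below 0. The 16 called genes were Psma1, Psma2, Psma7, Psmb1, Psmb2, Psmb3, Psmb6, Psmb7, Psmc3, Psmc4, Psmd1, Psmd2, Psmd3, Psmd13, Psme3 and Psmc3ip. In bulk RNA, fewer cells with a high level and less RNA per cell cannot be told apart.

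The direction was the same on each date, while the number of calls changed with single mice. The median of the family was -0.23 on date 1 alone and -0.20 on date 2 alone, where 1 and 0 genes were called. On each date, both old libraries lay below both young ones for 24 of the 44 genes, against 13.7% of all genes tested, and above them for 0. Leaving out a mouse gave 6 calls (without mouse 480), 8 (without 478 or 485), 10 (without 479, 483 or 484), 12 (without 486) or 15 (without 477), with medians from -0.25 to -0.17. Upper quartile scaling gave 9 calls, the table without a filter on low counts 10, and a fit with no term for date 5. Psma1, Psmb2, Psmc3, Psmd13 and Psme3 were called in all 8 fits that leave out a mouse, and Psmd2 and Psmb1 in 0. The calls of Psmc4 and Psmb7 were lost without mouse 480, that of Psmb3 without 478, 483 or 485 and that of Psmd3 without 480, 483 or 486. Psma2 lost its call without 478, 480, 483, 484 or 485, Psma7 without any mouse but 477 and 486, and Psmd1 without any but 477 and 483. The highest adjusted p among these was 0.147, for Psma2. Genes of proliferation moved with this result: 20 of 20 listed genes fell (median log2 fold change -1.04), and their summed level was 3950 to 5600 CPM in young and 2000 to 3320 CPM in old vehicle libraries. Of 12 stem cell genes, 9 rose (median 0.61), with summed levels of 3100 to 4880 CPM in young and 4520 to 5960 CPM in old libraries. Of 8 myeloid progenitor markers tested, 4 fell and 1 rose (median -1.01). Summed levels over 9 markers were 912 to 1060 CPM in young and 1140 to 1240 CPM in old libraries on date 1. On date 2 they were 3330 to 4470 CPM in young and 2450 to 2500 CPM in old libraries, so the direction of the sum differed between the dates. Fcnb was at 0 in some libraries of date 1. Of 9 megakaryocyte markers tested, 3 rose and 0 fell (median 0.66), with summed levels over 10 markers of 517 to 686 CPM in young and 1380 to 1810 CPM in old libraries. In the vehicle libraries of date 1, Mpo was at 9.58 CPM or less and the proteasome median was the -0.23 given above. The summed level of proliferation genes on that date was 3950 to 4270 CPM in young and 2000 to 2290 CPM in old vehicle libraries. The part of proliferation and of these markers in the proteasome result was not tested.

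**Figure D2:**
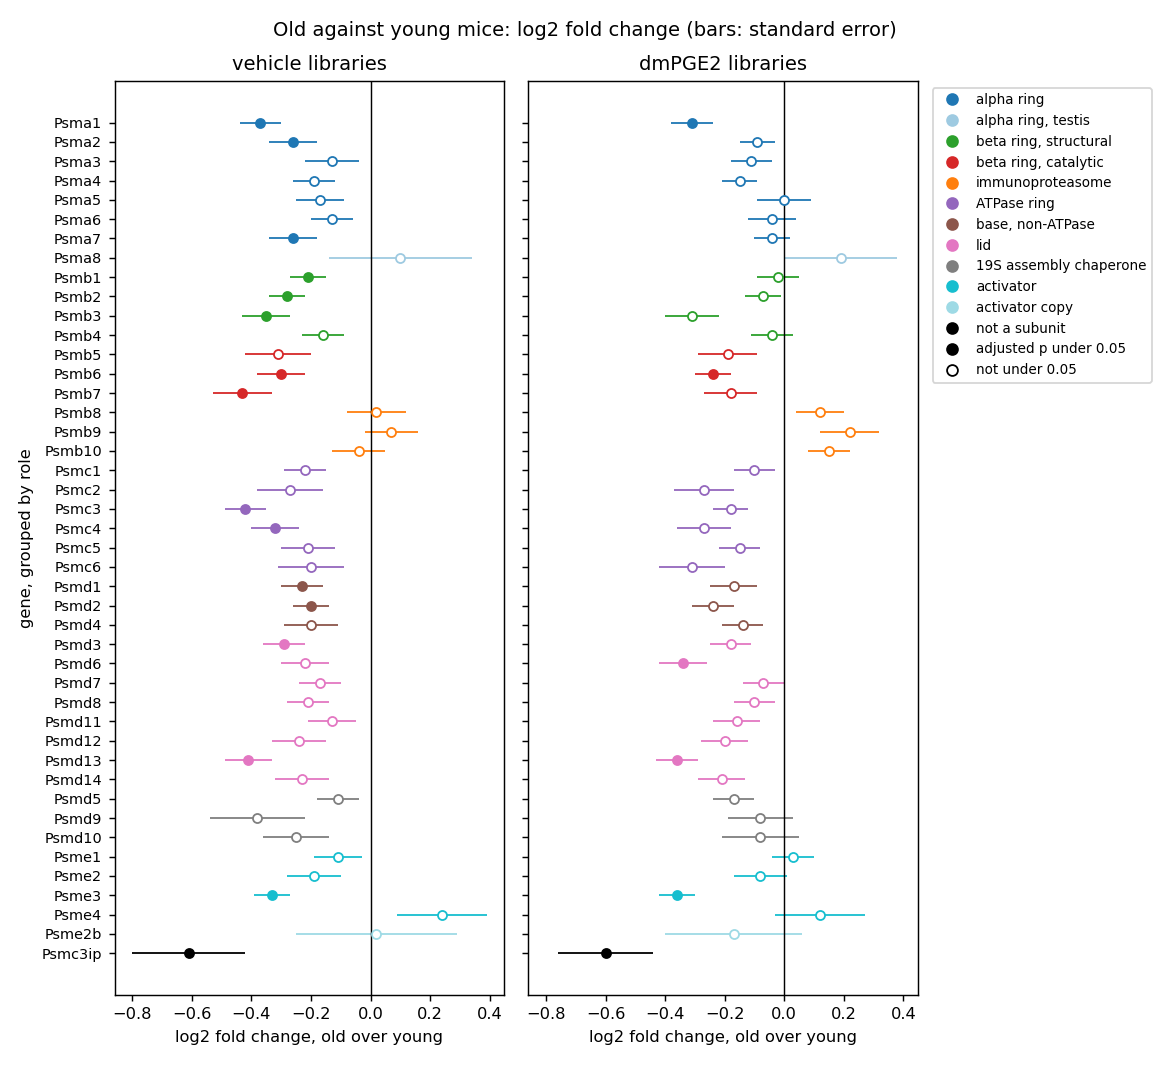
Log2 fold change of old over young mice for each of the 44 genes in the vehicle libraries (left) and the dmPGE2 libraries (right), with standard errors. Filled points passed the test at an adjusted p under 0.05: 16 genes in vehicle and 6 in dmPGE2, each of them lower in old mice. The orange immunoproteasome points lie near 0 in vehicle and from 0.12 to 0.22 in dmPGE2.

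In the constitutive 20S core, 8 of 14 genes fell in old vehicle mice and all 14 had values below 0 (median -0.26, range -0.43 to -0.13). Psma1, a subunit of the alpha ring, fell by 22.8%. It stood at 280, 311, 293 and 256 CPM in the young vehicle libraries and at 219, 225, 219 and 231 CPM in the old ones. Each old library lay below each young one, and the log2 fold change was -0.37 ± 0.07 (SE), adjusted p = 0.00441. Psma2 and Psma7 also fell, with log2 fold changes of -0.26 and -0.26. The other alpha subunits Psma3, Psma4, Psma5 and Psma6 had values from -0.19 to -0.13 and did not pass the test. The alpha subunits with the highest and the lowest level per length did not pass either. Psma6 stood at 222, 236, 260 and 228 CPM in young and 213, 196, 221 and 250 CPM in old vehicle libraries, and at 208, 203, 217 and 230 CPM and 212, 196, 191 and 241 CPM with dmPGE2. Psma5 stood at 140, 146, 139 and 125 CPM in young and 127, 115, 123 and 130 CPM in old vehicle libraries, and at 133, 124, 118 and 142 CPM and 132, 113, 134 and 142 CPM with dmPGE2. The groups of both genes overlapped in both arms. Psma8 was low throughout, at 16.8, 18.8, 16.2 and 9.82 CPM in young and 13, 19.5, 20.7 and 13.3 CPM in old vehicle libraries and at 16.2, 21.3, 14.4 and 16.4 CPM and 17.2, 20.2, 24.4 and 16.7 CPM with dmPGE2, with no call.

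Of the non-catalytic beta subunits, Psmb1, Psmb2 and Psmb3 fell and Psmb4 had a log2 fold change of -0.16 that did not pass. Psmb2 was nearly constant within each age, at 211, 220, 217 and 218 CPM in young and 183, 169, 189 and 183 CPM in old vehicle libraries. The groups did not overlap, and the log2 fold change was -0.28 ± 0.06 (SE), adjusted p = 0.00986. With dmPGE2 the same gene stood at 184, 182, 211 and 208 CPM in young and 192, 185, 184 and 187 CPM in old mice, where the groups overlapped and the log2 fold change was -0.07. Psmb4 had the lowest level per length among them, at 145, 154, 143 and 161 CPM in young and 140, 139, 135 and 136 CPM in old vehicle libraries, which did not overlap, and at 144, 154, 159 and 152 CPM and 162, 141, 148 and 145 CPM with dmPGE2, which did. Psmb1 and Psmb3 had log2 fold changes of -0.21 and -0.35 in vehicle.

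The catalytic subunits of the core all had lower values in old mice. Psmb6, which encodes the caspase-like subunit, lies on chromosome 11 at 70525357 to 70527858 (build mm10). It stood at 232, 289, 226 and 229 CPM in young and 202, 196, 195 and 208 CPM in old vehicle libraries. Each old library lay below each young one, also without the high value of mouse 478, and the log2 fold change was -0.30 ± 0.08 (SE), adjusted p = 0.0267. This call was lost without mouse 478 (adjusted p = 0.0593), 479 (0.0750), 480 (0.0967) or 485 (0.0679), and with upper quartile scaling (0.0557). Psmb7, which encodes the trypsin-like subunit (chromosome 2, 38588046 to 38643906), fell by 25.8%. Its values were 82, 108, 92.1 and 93.4 CPM in young and 70.9, 67.1, 73.1 and 71.8 CPM in old vehicle libraries, with no overlap. The log2 fold change was -0.43 ± 0.10 (SE), adjusted p = 0.0133, and without mouse 480 the adjusted p was 0.0517. Psmb5, which encodes the chymotrypsin-like subunit (chromosome 14, 54614120 to 54617995), stood at 98.4, 128, 98.3 and 117 CPM in young and 97.9, 82.1, 87.8 and 93 CPM in old vehicle libraries. Every old value lay below every young one here too, though narrowly, and the difference did not pass (log2 fold change -0.31 ± 0.11 (SE), adjusted p = 0.071).

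The immunoproteasome subunits showed no call in either arm, and their values in vehicle lay between -0.04 and 0.07. Psmb8 (chromosome 17, 34198195 to 34201454) stood at 373, 491, 360 and 356 CPM in young and 456, 367, 369 and 427 CPM in old vehicle libraries, with a log2 fold change of 0.02 ± 0.10 (SE), adjusted p = 0.924. Psmb9 (LMP2, the counterpart of Psmb6, chromosome 17, 34182099 to 34187330) stood at 167, 190, 159 and 158 CPM in young and 198, 175, 152 and 192 CPM in old vehicle libraries, with a log2 fold change of 0.07 ± 0.09 (SE), adjusted p = 0.633. Psmb10 (MECL-1, the counterpart of Psmb7, chromosome 8, 105935728 to 105938392) stood at 174, 210, 154 and 154 CPM in young and 176, 162, 168 and 171 CPM in old vehicle libraries, with a log2 fold change of -0.04 ± 0.09 (SE), adjusted p = 0.775. The groups of all 3 genes overlapped, and with standard errors of 0.09 to 0.10 neither a small rise nor a small fall can be told from 0. In the dmPGE2 libraries the log2 fold changes were 0.12 for Psmb8, 0.22 for Psmb9 and 0.15 for Psmb10, again without a call (adjusted p = 0.382, 0.154 and 0.209). There Psmb10 stood at 156, 153, 157 and 136 CPM in young and 183, 159, 164 and 166 CPM in old libraries, which did not overlap. Psmb9 stood at 156, 159, 136 and 157 CPM and 206, 156, 163 and 188 CPM, and Psmb8 at 343, 359, 327 and 373 CPM and 404, 321, 390 and 424 CPM, and both of these overlapped. Psmb9 and Psmb8 lie on either side of Tap1, which encodes a peptide transporter of MHC class I loading: 225 bases separate Psmb9 from Tap1, which is read from the opposite strand, and 969 bases separate Tap1 from Psmb8. Tap1 had a log2 fold change of 0.30 ± 0.11 (SE) in vehicle, with an adjusted p of 0.0831.

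**Figure D3:**
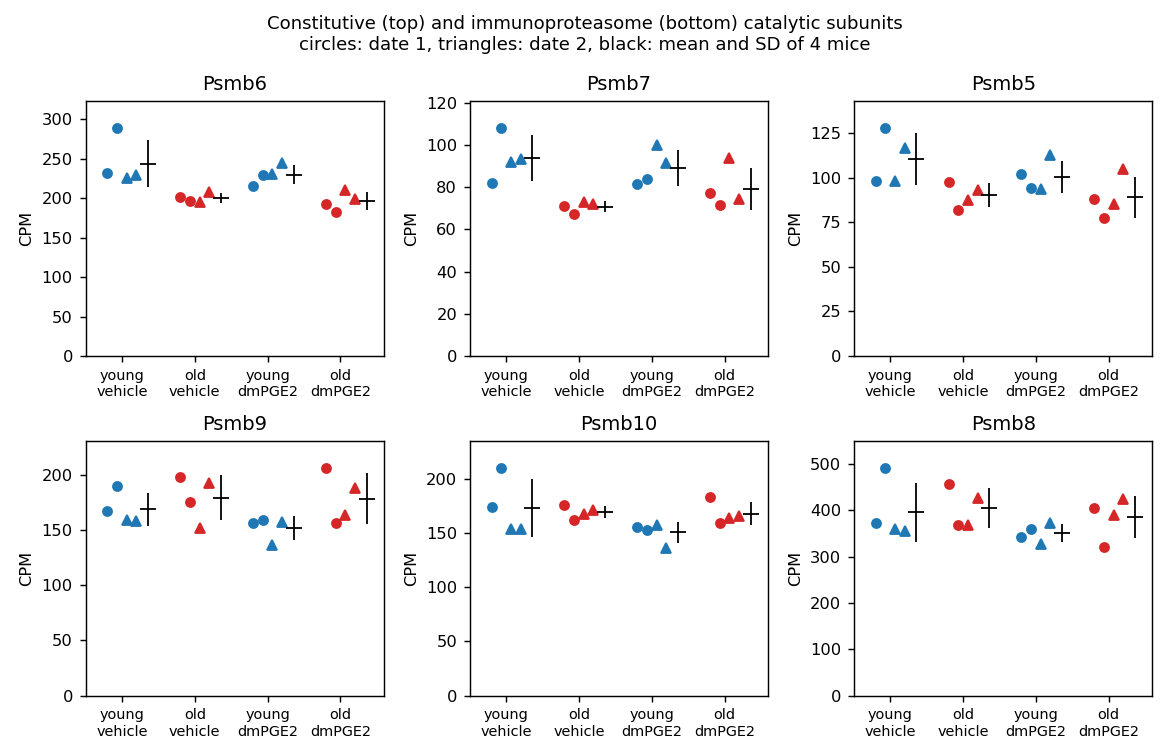
CPM of the constitutive catalytic subunits (top) and the immunoproteasome subunits that take their places (bottom) in each library, young in blue and old in red, with the mean and SD of 4 mice. In vehicle, old Psmb6, Psmb7 and Psmb5 lie below young, while Psmb9, Psmb10 and Psmb8 overlap.

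The promoters of Psmb6 and Psmb5 are shown because these genes encode catalytic subunits and carry a match to the motif described here. The sequences are the 250 bases before the gene start on the strand of the gene, from RefSeq on GRCm38.p6, in which 37 of the 44 members had an entry. Capitals mark matches on either strand to TGACNNNGC, a short form of the antioxidant response element that NFE2L1 and NFE2L2 bind.
Psmb6, chr11:70525107-70525356, plus strand: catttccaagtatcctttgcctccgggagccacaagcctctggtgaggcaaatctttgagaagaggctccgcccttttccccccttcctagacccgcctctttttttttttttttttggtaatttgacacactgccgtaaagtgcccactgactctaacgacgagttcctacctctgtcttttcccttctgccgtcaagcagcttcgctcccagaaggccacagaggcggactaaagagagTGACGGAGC
Psmb5, chr14:54617996-54618245, minus strand: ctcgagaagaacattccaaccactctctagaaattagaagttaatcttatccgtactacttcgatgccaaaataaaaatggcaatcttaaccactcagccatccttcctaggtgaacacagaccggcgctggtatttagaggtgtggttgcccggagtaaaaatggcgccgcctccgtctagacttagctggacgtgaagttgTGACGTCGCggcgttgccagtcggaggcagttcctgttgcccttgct
Psmb6 carried the motif directly before its start and Psmb5 carried it 47 bases before. In windows from 250 bases before to 50 after the start, TGACNNNGC was found for 6 of 37 members (16.2%) and for 14% of all 27025 genes of the promoter table. The second form of the antioxidant element, TGAGNNNGC, was found for 12 members (32.4%) and for 19.8% of all genes. The interferon-stimulated response element was found for 4 members (10.8%: Psmb3, Psmd4, Psmd9 and Psme1) and for 3.99% of all genes. Of the 11 members with an entry that were called lower in old vehicle mice, 1 held TGACNNNGC and 5 held TGAGNNNGC, against 5 and 7 of the other 26. Psmb8, Psmb9 and Psmb10 held none of the motifs above in these windows, which says only that the letters are not there. TTCNNNGAA, the gamma-activated site, was searched as well. It was found for 2 members (5.41%: Psmb8 and Psmd2) and for 9.55% of all genes, and in Psmb8 it began 97 bases before the start.

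In these libraries the ratio within each catalytic pair was higher in old than in young mice on average. For each library, the log2 ratio of the CPM of an immunoproteasome subunit to its constitutive counterpart was taken, a quantity that does not depend on library scaling. It was chosen after the fold changes had been seen, and so it is given as a description with no test. Psmb9 over Psmb6 averaged -0.16 ± 0.14 (SD, n = 4) in old and -0.53 ± 0.06 in young vehicle libraries, a difference of 0.36 (0.44 on date 1 and 0.29 on date 2). The old libraries ran from -0.35 to -0.03 and the young ones from -0.61 to -0.47. Psmb10 over Psmb7 averaged 1.26 ± 0.05 in old and 0.88 ± 0.18 in young vehicle libraries, a difference of 0.38 (0.27 and 0.49 on the 2 dates). Psmb8 over Psmb5 averaged 2.16 ± 0.06 in old and 1.84 ± 0.15 in young, a difference of 0.33 (0.26 and 0.39). On a linear scale these ratios were 1.29, 1.30 and 1.25 times higher in old vehicle libraries. With dmPGE2 the differences were 0.45, 0.34 and 0.31. Old and young ratios did not overlap in 5 of the 6 combinations of pair and arm, the exception being Psmb10 over Psmb7 with dmPGE2. How many other gene pairs separate in this way is not given here, so whether this count is unusual cannot be told. The ratios also use the same values as the falls of Psmb6 and Psmb7 described above. The arms share their mice and are not independent. Leaving out each mouse gave differences from 0.25 to 0.45 in vehicle.

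**Figure D4:**
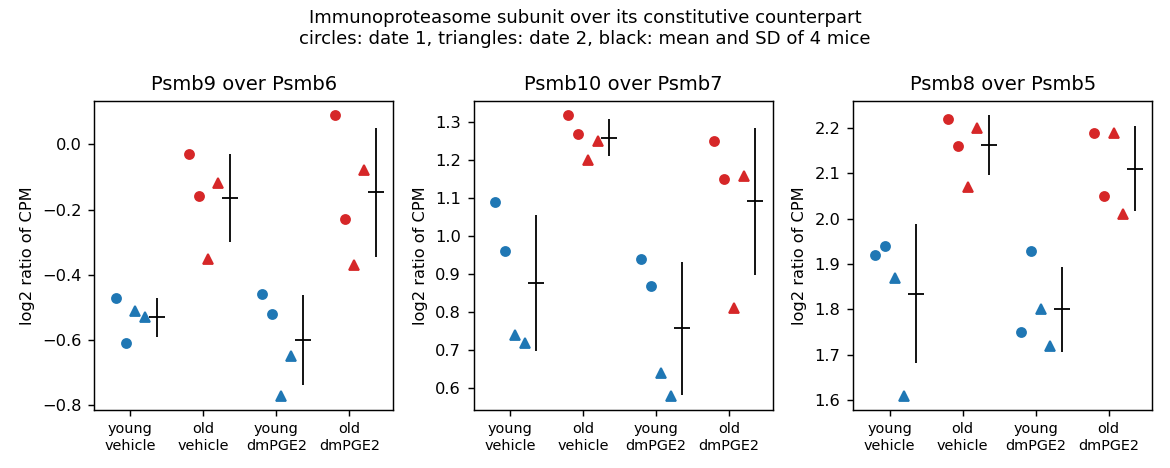
Log2 ratio of the CPM of each immunoproteasome subunit to that of its constitutive counterpart in each library, young in blue and old in red, with the mean and SD of 4 mice. Old libraries lie above young ones in every panel except for 1 old dmPGE2 library of Psmb10 over Psmb7.

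In the 19S particle, 6 of 17 subunit genes fell in old vehicle mice and all 17 had values below 0 (median -0.22). Psmc3 (Rpt5), an ATPase of the base, fell by 25.3% and had the smallest p of the family. It stood at 215, 250, 268 and 253 CPM in young and 180, 178, 192 and 198 CPM in old vehicle libraries, with no overlap, and its log2 fold change was -0.42 ± 0.07 (SE), adjusted p = 0.00186. With dmPGE2 it stood at 201, 216, 226 and 251 CPM in young and 188, 175, 214 and 218 CPM in old mice. These groups overlapped across the dates but not within either date, and the log2 fold change of -0.18 did not pass (adjusted p = 0.0829). Psmc4 (Rpt3) fell as well, with a log2 fold change of -0.32 in vehicle. The other ATPases Psmc1, Psmc2, Psmc5 and Psmc6 had values from -0.27 to -0.20 without a call. Psmc6 (Rpt4), the ATPase with the lowest level per length, was spread widely over the libraries. It stood at 97.5, 87.7, 94.9 and 90 CPM in young and 71.4, 67.4, 90.6 and 102 CPM in old vehicle libraries, and at 82.4, 88, 117 and 110 CPM and 89.7, 69.3, 83.9 and 76.4 CPM with dmPGE2.

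Psmd1 (Rpn2) and Psmd2 (Rpn1), the scaffold subunits of the base, fell with log2 fold changes of -0.23 and -0.20 in vehicle. Psmd2 stood at 377, 381, 418 and 381 CPM in young and 349, 339, 359 and 332 CPM in old vehicle libraries, and at 405, 390, 432 and 405 CPM and 352, 333, 314 and 397 CPM with dmPGE2. Psmd1 stood at 246, 290, 258 and 292 CPM in young and 226, 232, 236 and 245 CPM in old vehicle libraries, and at 253, 249, 234 and 282 CPM and 232, 226, 208 and 247 CPM with dmPGE2. Neither gene overlapped between the ages in vehicle, while both did with dmPGE2. The dmPGE2 overlap of Psmd2 arose across the dates and not within either date. The ubiquitin receptor gene Psmd4 (Rpn10) had a log2 fold change of -0.20 ± 0.09 (SE), adjusted p = 0.153. In the lid, Psmd13 (Rpn9) and Psmd3 (Rpn3) fell. Psmd13 stood at 105, 113, 127 and 127 CPM in young and 86.9, 84, 90.8 and 99.7 CPM in old vehicle libraries, with no overlap and a log2 fold change of -0.41 ± 0.08 (SE), adjusted p = 0.00477. Its values with dmPGE2 were 102, 103, 132 and 135 CPM in young and 85.5, 76.9, 99.7 and 107 CPM in old mice, which overlapped across the dates but not within either date. The deubiquitinase of the lid, Psmd14 (Rpn11), had a log2 fold change of -0.23 ± 0.09 (SE), adjusted p = 0.115 in vehicle. Psmd7 (Rpn8), its partner and the lid gene with the highest level per length, stood at 188, 188, 215 and 208 CPM in young and 174, 163, 203 and 180 CPM in old vehicle libraries, and at 168, 175, 196 and 222 CPM and 180, 158, 193 and 195 CPM with dmPGE2. The lid genes other than Psmd3 and Psmd13 had values from -0.24 to -0.13 in vehicle and no call.

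The chaperones of base assembly, Psmd5, Psmd9 and Psmd10, had values of -0.11, -0.38 and -0.25 in vehicle and no call. Psmd5 stood at 160, 151, 152 and 152 CPM in young and 143, 143, 155 and 138 CPM in old vehicle libraries, and at 163, 153, 168 and 186 CPM and 142, 155, 158 and 144 CPM with dmPGE2. Psmd9 stood at 47, 42.5, 65 and 59.5 CPM in young and 46.6, 35.5, 48.4 and 34.2 CPM in old vehicle libraries, and at 40.2, 48.1, 48.5 and 53.7 CPM and 39.5, 38.5, 48.5 and 57 CPM with dmPGE2. Old and young values of both genes overlapped in both arms.

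Among the activators, Psme3 passed the test and Psme1, Psme2 and Psme4 did not. Psme3 encodes PA28 gamma, the nuclear activator, and fell by 20.6% in old vehicle mice. It stood at 259, 270, 315 and 355 CPM in young and 216, 218, 266 and 265 CPM in old vehicle libraries. The old libraries lay below the young ones within each date, but across dates the groups overlapped, and the level was higher on date 2. The log2 fold change was -0.33 ± 0.06 (SE), adjusted p = 0.00395. With dmPGE2 it stood at 262, 282, 363 and 349 CPM in young and 232, 227, 255 and 265 CPM in old mice, again apart within each date, with a log2 fold change of -0.36 ± 0.06 (SE), adjusted p = 0.00387. Psme1 and Psme2 are inducible by interferon and encode the subunits of the PA28 ring. Psme1 stood at 305, 351, 283 and 318 CPM in young and 328, 287, 266 and 299 CPM in old vehicle libraries, and at 274, 291, 291 and 300 CPM and 318, 275, 281 and 318 CPM with dmPGE2. Psme2 stood at 148, 179, 167 and 171 CPM in young and 153, 124, 155 and 160 CPM in old vehicle libraries, and at 122, 130, 179 and 165 CPM and 146, 109, 150 and 160 CPM with dmPGE2. Their log2 fold changes in vehicle were -0.11 and -0.19, and the groups overlapped in both arms. The nuclear activator gene Psme4 had the highest value of the family, 0.24 ± 0.15 (SE), adjusted p = 0.297, without a call. It stood at 51.9, 40.4, 71.9 and 51.8 CPM in young and 60.3, 64.8, 58 and 73.4 CPM in old vehicle libraries, and at 55.6, 58.5, 52.2 and 47.8 CPM and 65.7, 65.4, 37.3 and 66.5 CPM with dmPGE2. Psme2b, at 5.66, 5.27, 7.13 and 8.2 CPM in young and 6.43, 6.21, 4.98 and 9.06 CPM in old vehicle libraries and 6.39, 6.4, 8.41 and 8.04 CPM and 7.26, 5.05, 6.43 and 7.19 CPM with dmPGE2, is a near copy of Psme2, and an exon of it overlaps another gene of the table, so its counts are uncertain.

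Psmc3ip, the member that is no proteasome gene, fell in both arms and is not part of any count of subunits given by role. It stood at 17.5, 20.9, 18.4 and 25.5 CPM in young and 12.3, 10.8, 13.8 and 18.5 CPM in old vehicle libraries, and at 18.1, 17.8, 18.5 and 26.9 CPM and 11.4, 12.3, 14.4 and 16 CPM with dmPGE2. The log2 fold changes were -0.61 ± 0.19 (SE), adjusted p = 0.0453 in vehicle and -0.60 ± 0.16 (SE), adjusted p = 0.0339 with dmPGE2. The call was lost in 6 of the 8 fits that leave out a mouse in each arm (without 477, 478, 479, 480, 484 or 485), with adjusted p up to 0.139 in vehicle and 0.128 with dmPGE2. Its exons overlap those of Mlx on the opposite strand, as those of Psme1 overlap Emc9 and those of Psma4 overlap AY074887, and whether the counting used strand is not given in the sources used here.

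In the dmPGE2 libraries of the same mice, 6 of the 44 genes fell in old mice and 0 rose, against 6.41% of all 13279 genes tested called lower and 7.85% called higher. Among genes averaging at least 30 CPM, 8.39% were called lower. The 6 genes were Psma1, Psmb6, Psmd6, Psmd13, Psme3 and Psmc3ip. Of these, 5 were also called in vehicle (31.2% of the vehicle calls and 83.3% of the dmPGE2 calls), and the arms share their mice. Psmd6 (Rpn7), a lid subunit, was called in this arm and not in vehicle, a difference that its age by dmPGE2 interaction did not pass (-0.13 ± 0.12, adjusted p = 0.872). It stood at 116, 134, 129 and 141 CPM in young and 107, 109, 116 and 120 CPM in old vehicle libraries, and at 115, 107, 138 and 134 CPM and 98, 87.5, 109 and 95.4 CPM with dmPGE2. In the latter the log2 fold change was -0.34 ± 0.08 (SE), adjusted p = 0.0172, beside -0.22 in vehicle. Psmb6 stood at 215, 229, 231 and 245 CPM in young and 193, 183, 211 and 199 CPM in old dmPGE2 libraries, without overlap, with a log2 fold change of -0.24 ± 0.06 (SE), adjusted p = 0.0243. Psma1, at 260, 262, 276 and 295 CPM and 226, 195, 214 and 254 CPM, did not overlap either (-0.31 ± 0.07 (SE), adjusted p = 0.0186). Psmb7 stood at 81.4, 83.8, 100 and 91.3 CPM in young and 77.2, 71.6, 93.6 and 74.2 CPM in old dmPGE2 libraries and Psmb5 at 102, 94.2, 93.7 and 113 CPM and 88.4, 77.7, 85.4 and 105 CPM, and both overlapped. The log2 fold change of Psmd13 was -0.36 ± 0.07 (SE), adjusted p = 0.00795.

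The median of the family in the dmPGE2 arm was -0.15, against -0.01 for all genes tested, and 38 of 44 genes lay below 0. All 16 genes called in vehicle lay below 0. On each date, both old libraries lay below both young ones for 14 of the 44 genes, against 12.2% of all genes tested, and above them for 1 (Psmb10). Counts ranged from 2 to 9 when a mouse was left out: 2 without 477, 480 or 484, 3 without 478, 5 without 485, 6 without 483, 8 without 479 and 9 without 486. DESeq2 called 10 genes and limma-voom 8. Date 1 alone gave 5 calls, date 2 alone 0 and the fit with no term for date 0. Psme3 and Psmd13 were called in all 8 fits that leave out a mouse, Psmd6 in 5, and Psma1 and Psmb6 in 4. The mice whose absence lost the calls of Psma1 and Psmb6 were 477, 478, 480 and 484, with adjusted p up to 0.0781 and 0.105. For Psmd6 they were 477, 480 and 484, with adjusted p up to 0.0701.

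Between dmPGE2 and vehicle, none of the 44 genes passed the test. In the edgeR fit that compares both libraries of each mouse, 0 genes were called over all mice, against 0.610% of 13942 genes tested. In old and in young mice taken alone 0 genes were called, where 0.00% of all genes were called in either case, and DESeq2 and limma-voom also called 0 in each. An unadjusted p under 0.05 was found for 1 member in old and 6 in young mice. The matching shares over all genes are not given here, nor for the counts of this kind below. Over all mice, 3 of the 44 genes had an unadjusted p under 0.05, with lower values under dmPGE2. They were, as log2 fold change ± SE, Psmb3 (-0.15 ± 0.06, adjusted p = 0.28), Psmd6 (-0.14 ± 0.06, adjusted p = 0.33) and Psma6 (-0.10 ± 0.05, adjusted p = 0.388). In young mice the smallest p belonged to Psma7 (-0.20 ± 0.07, adjusted p = 0.289), Psmb10 (-0.19 ± 0.07, adjusted p = 0.325) and Psmb2 (-0.15 ± 0.06, adjusted p = 0.347). In old mice they belonged to Psmd6 (-0.21 ± 0.08, adjusted p = 0.558), Psmb4 (0.12 ± 0.06, adjusted p = 0.702) and Psmb7 (0.16 ± 0.09, adjusted p = 0.749). The median of the family was -0.03 over all mice, -0.07 in young and 0.00 in old. No gene moved in 1 direction in all 8 mice.

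Taken mouse by mouse, the largest shift lay in mouse 478. The median log2 difference between dmPGE2 and vehicle over the family was -0.23 in that young mouse, where 36 of 44 genes were lower. Over all genes tested, the median in this mouse was -0.00 and 50% were lower. In the other mice it ran from -0.05 to 0.04. The median of young mice without 478 was -0.01. In the vehicle library of mouse 478 several of the genes stood higher than in the other young libraries, such as Psmb6 at 289 CPM and Psmb8 at 491 CPM. The dmPGE2 values of this mouse, 229 and 359 CPM, lay within the range of the other young dmPGE2 libraries.

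**Figure D5:**
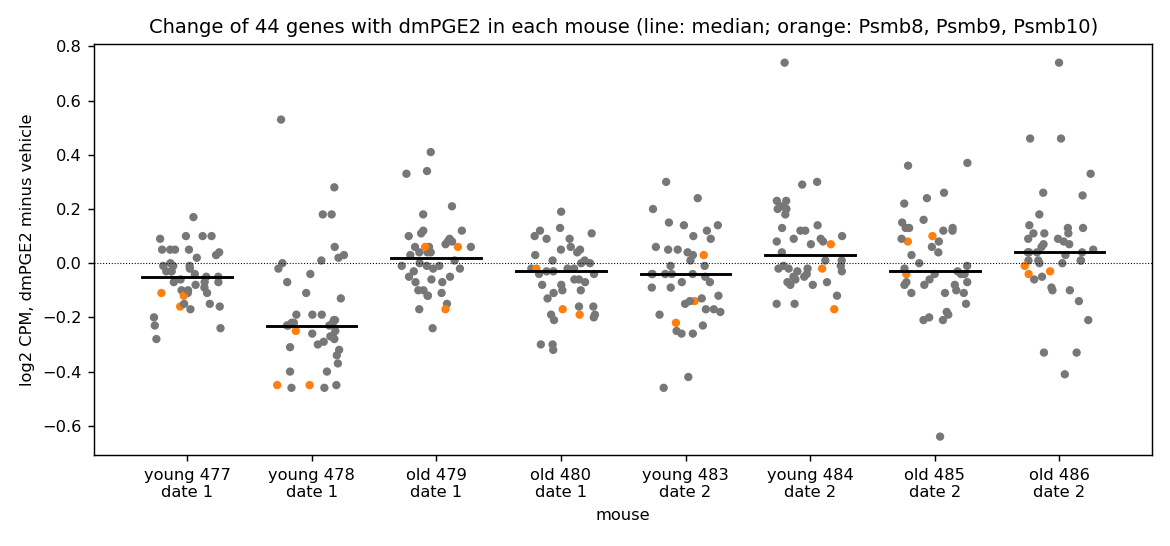
Log2 CPM with dmPGE2 minus log2 CPM with vehicle for the 44 genes in each of 8 mice, with the median as a line and Psmb8, Psmb9 and Psmb10 in orange. The median of mouse 478 is -0.23, and those of the other mice lie between -0.05 and 0.04.

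No difference in the response to dmPGE2, between ages or between dates, passed the test in edgeR for any of the 44 genes. For the age by dmPGE2 interaction 0 genes were called (0.00% of all genes tested), 2 had an unadjusted p under 0.05, and the smallest p belonged to Psmc3 (0.23 ± 0.09, adjusted p = 0.696), Psmb2 (0.20 ± 0.09, adjusted p = 0.717) and Psma7 (0.21 ± 0.10, adjusted p = 0.729). For the date by dmPGE2 interaction 0 were called, against 1.08% of all genes tested, and 3 had an unadjusted p under 0.05. The smallest p there belonged to Psme4 (-0.54 ± 0.17, adjusted p = 0.284), Psme2 (0.24 ± 0.09, adjusted p = 0.415) and Psmb8 (0.23 ± 0.09, adjusted p = 0.437). On date 1 alone Psmb8 fell with dmPGE2 (log2 fold change -0.23, SE 0.06, adjusted p 0.0457), the only call in the family, and on date 2 alone its value was -0.00 (SE 0.06). The date 1 fit held 8 libraries and left 2 residual degrees of freedom, and the share of all genes it called is not given here. By mouse, the Psmb8 difference was -0.45 in mouse 478, whose vehicle library was high, and -0.12, -0.17 and -0.19 in mice 477, 479 and 480. Within the pairs, the ratio of Psmb10 to Psmb7 was lower with dmPGE2 in 8 of 8 mice, by 0.14 ± 0.10 (SD) in log2 on average. That of Psmb8 to Psmb5 was lower in 6 of 8 mice and that of Psmb9 to Psmb6 in 4. These ratios, too, were chosen after the data were seen and carry no test.

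In vehicle, Psme3 was the only member called between date 2 and date 1, and it was higher on date 2 (0.31 ± 0.06, adjusted p = 0.00697). Over all genes tested 8.0% were called higher and 3.01% lower. The median of the family was 0.09, that of the 19S particle 0.13 and that of the immunoproteasome genes -0.16. For the age by date interaction in vehicle 0 members were called in edgeR (0.00% of all genes tested), 2 had an unadjusted p under 0.05, and the smallest p belonged to Psmc6 (0.46 ± 0.18, adjusted p = 0.845), Psmd4 (-0.34 ± 0.15, adjusted p = 0.845) and Psmb10 (0.31 ± 0.16, adjusted p = 0.873).

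Genes around the proteasome gave the following counts for old against young mice in vehicle. Over all genes tested there, 8.86% were called lower and 8.47% higher, and 12.7% lower among genes averaging at least 30 CPM. Of 12 further subunits and assembly factors under other names, 2 fell: Psmg2, which encodes a chaperone of alpha ring assembly (-0.38 ± 0.11, SE, adjusted p = 0.0320), and Txnl1, a thioredoxin-like protein of the 19S particle (-0.30 ± 0.08, adjusted p = 0.0237). The maturation factor gene Pomp did not pass (-0.28 ± 0.10, adjusted p = 0.0699). Among 16 proteasome-bound deubiquitinases, ligases and shuttles, 3 fell and 1 rose. Uchl5 and Usp14, which encode deubiquitinases bound to the 19S particle, fell by 0.36 and by 0.27 on the log2 scale. Zfand5, which encodes a zinc finger protein that stimulates the proteasome, rose by 0.60 ± 0.07. Of 10 genes of ubiquitin and its activation, 0 were called. In the dmPGE2 libraries, 0 of the 12 further subunits and assembly factors were called between the ages (median -0.04, beside -0.24 in vehicle). Of the 16 deubiquitinases, ligases and shuttles, 1 fell and 1 rose there.

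Of 11 transcription factors of proteasome genes, 4 rose in old vehicle mice and 0 fell, with a median of 0.34. The share of all genes tested that was called higher in this comparison was 8.47%. Irf1, which acts in the interferon response, rose by 0.78 ± 0.08 (SE), and Nlrc5, the activator of MHC class I genes, by 0.71 ± 0.10. Nfe2l2, the antioxidant response factor, rose by 0.44 ± 0.08, while Nfe2l1, which drives the recovery of proteasome genes after inhibition, had a value of 0.30 ± 0.10 (adjusted p = 0.0721). Of 10 genes of MHC class I presentation, 3 rose and 0 fell (median 0.15): H2-D1 by 0.39 ± 0.05, H2-K1 by 0.37 ± 0.05 and Tapbp by 0.22 ± 0.05. With dmPGE2 against vehicle over all mice, Mafg, a partner of the antioxidant factors, was the only gene of these lists called (0.34 ± 0.07, adjusted p = 0.0435).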

How the data were processed

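Bulk RNA-seq libraries of sorted stem cells from 8 mice were analysed from the raw counts per gene that the authors deposited. The submitters' processing notes name STAR 2.5.2b, Subread 1.5.1 with featureCounts and build mm10; the sources used here give neither strand setting nor annotation release. The 2504 empty lines were dropped. The deposited table holds only genes above 0.5 CPM in at least 2 libraries, so absent genes were not analysed here. The table's gene length column served for levels per kilobase.

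Tests used edgeR 4.0.16 (quasi-likelihood, robust, TMM scaling, filterByExpr) in R 4.3.3 on the whole table, with Benjamini-Hochberg adjustment over all genes tested and a threshold of 0.05. dmPGE2 fits held a term per mouse (16 libraries, 13942 genes), and age fits a term for date (8 libraries of 1 arm). SE is the log2 fold change divided by the square root of F. The fitting code was also run on simulated counts with known fold changes. Those counts held no differences between mice of a group beyond random spread, so the run could not check the term for mouse. Alternatives were other scalings, no filter, DESeq2 1.42.0, limma-voom (limma 3.58.1), each mouse left out, each date alone, and fits without the block or the date term. P-values cover only the spread between these mice.

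The design given for the series states that the cells of each mouse were split, so libraries were paired by mouse. Deviations of the libraries of a mouse from the group means correlated at 0.429 to 0.693, and at 0.027 to 0.223 after date means were removed as well.

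Values in every library are given for Psmb5 to Psmb10, Psme1 to Psme4, the highest and lowest member per length in each role, Psma8, Psme2b and the 6 smallest p among calls. Comparisons without a call give the 3 smallest p, and other lists name up to 4 called genes by smallest p. A few results that this rule covers are not reported here. Tap1, Pomp and Nfe2l1 were named after their values were seen. Members and lists were chosen with earlier results of these data known.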

Additional observations from a re-analysis of the deposited data

Results flagged for a closer look

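Over all 44 genes, 10 of 176 groups of 4 libraries held a value far from the other 3. The rule was Dixon's criterion at the 95% level, where chance flags about 1 in 20 groups. The count was close to that rate, so the flagged values cannot be told from chance and are listed as a description. In young vehicle mice, Psmb6 and Psmb8 were flagged in the same library, that of mouse 478. Psmb6 was at 289 CPM against 226 to 232 CPM in the others, and Psmb8 at 491 CPM against 356 to 373 CPM. The young vehicle library of mouse 483 was high in Psmd2, at 418 CPM against 377 to 381 CPM, and in Psmd11, at 200 CPM against 171 to 173 CPM. That of mouse 477 was low in Psma2, at 205 CPM against 235 to 241 CPM, and high in Psmd5, at 160 CPM against 151 to 152 CPM. In young dmPGE2 libraries, Psmb9 was low in mouse 483, at 136 CPM against 156 to 159 CPM, and Psmc3ip was high in mouse 484, at 26.9 CPM against 17.8 to 18.5 CPM. In old mice, Psmd10 was low in the vehicle library of mouse 486, at 37.4 CPM against 43.9 to 44.7 CPM, and Psme4 was low in the dmPGE2 library of mouse 485, at 37.3 CPM against 65.4 to 66.5 CPM.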

How the results depend on the processing

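The number of members called lower in old vehicle mice (16) was 9 with upper quartile scaling, 10 without a filter, 5 without a term for date, 1 on date 1 alone, 0 on date 2 alone and 6 to 15 when a mouse was left out. In the dmPGE2 arm (6) it was 10 with DESeq2, 0 without a term for date, 0 on date 2 alone and 2 to 9 when a mouse was left out. The dates alone hold 4 libraries an arm, and the other causes were not tested. The count for dmPGE2 over all mice (0) was 1 on date 1 alone. The median of the age by date interaction ran from -0.08 to 0.11 over the mice left out. Values near 0 turned sign. In vehicle with age, Psmb10 gave 0.05 without mouse 478, 0.01 without 480 and 0.13 on date 2 alone. Psmb8 gave -0.03 without 477, -0.02 without 479, -0.00 without 484, -0.05 without 486 and -0.09 on date 1 alone, and Psmb9 gave -0.01 without 486. In the dmPGE2 arm, Psme1 gave -0.01 without 479, Psme2 0.01 on date 1 alone and Psme4 -0.04 without 486 (up to 0.29, without 485). The effect of dmPGE2 on Psmb9 over Psmb6 was 0.01 without 483 and 0.03 on date 1 alone. The ratio alternatives were chosen after seeing the data. Without the block for mouse, the dmPGE2 comparisons again called 0 members, with medians of -0.03 over all mice, 0.01 in old and -0.07 in young mice, 0.07 for the age and 0.09 for the date interaction, so pairing changed no call.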

Other observations

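Marker lists of further cell types were compared between old and young vehicle libraries, where 8.86% of all genes tested were called lower and 8.47% higher. Of 11 neutrophil markers tested, 1 rose and 2 fell (median log2 fold change -0.50). Of 10 monocyte markers 1 fell (median -0.63), and of 10 erythroid markers 2 fell (median -0.95). Of 6 B cell markers tested 1 rose (median -0.20), and of 9 T and NK cell markers 1 fell (median -0.36). With each date taken alone, 0 of 10 erythroid markers fell on date 1 (median -0.04) and 6 of 10 on date 2 (median -1.66). In the test of the difference itself, the age by date interaction, 0 of 10 passed in edgeR (median -1.20). The proteasome genes lay at medians of -0.23 and -0.20 on the same dates. The part of these markers in the proteasome result was not tested.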
